A study of Mus musculus with 12 samples.

Results

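RNA sequencing compared granulocyte-monocyte progenitors (GMP) with cells labelled LSK from mice given a STING agonist, over the genes listed in both deposited tables. The comparison took all 6 treated libraries, 3 labelled GMP and 3 labelled LSK, of the 12 libraries in the study, and 24982 genes, of 35796 in either table. Of the shared genes, 16857 passed a filter on low counts and were tested, and 8125 were not. All cells came from the bone marrow of C57BL/6 mice in a melanoma-bearing model, and libraries were made with Smart-Seq2, which amplifies full-length cDNA from very small inputs. Treated mice received diABZI, a small molecule that activates STING. The other 6 libraries, 3 per cell type, came from control mice, and they are used here as the background of the same comparison without the agonist. Dose, time after dosing, age, sex, the number of cells and of mice per library and the sort gates were not given in the labels, whose protocol speaks of single-cell samples. Whether the 3 libraries of each group represent separate animals is not stated, so the p-values measure the spread between libraries, which may be technical.

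LSK stands for cells without lineage markers that carry Sca-1 (the product of Ly6a) and Kit, a bone marrow fraction that holds stem cells and multipotent progenitors. GMP are Kit-positive cells with CD34 and Fc gamma receptors on their surface and without Sca-1, and they give rise to neutrophils and monocytes. Cytosolic DNA makes the enzyme cGAS produce a cyclic dinucleotide that activates STING, after which TBK1, IRF3 and NF-kappaB induce type I interferons and inflammatory genes. Interferons in turn act through JAK kinases on a large set of interferon-stimulated genes.

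Values per library are CPM, counts scaled to a common library size after correction by the trimmed mean of M values (TMM), and are listed for replicates 1, 2 and 3 in that order. Differences are log2 values of GMP minus LSK-labelled cells, with their standard error, from 1 edgeR quasi-likelihood fit over all 12 libraries. A gene was called when its Benjamini-Hochberg adjusted p over all 16857 genes was under 0.05. Treated libraries held between 30649314 and 39135896 counts. Mitochondrial transcripts took 1.24% to 1.96% of the counts in treated GMP and 2.72% to 3.61% in treated LSK-labelled libraries, a split whose part in the results was not tested. In bulk RNA, fewer cells of a type and less RNA per cell cannot be told apart.

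Cd34 and Fcgr2b, markers of the GMP sort, were higher in the GMP libraries, while Ly6a, the marker that defines LSK cells, was not higher in the LSK-labelled libraries. Cd34 stood at 547, 552 and 574 CPM in treated GMP and at 39, 21.8 and 189 CPM in treated LSK-labelled libraries (2.74 ± 0.64, adjusted p = 0.0176). Fcgr2b, an Fc gamma receptor gene, stood at 216, 244 and 213 against 31.8, 20.8 and 56.9 CPM (2.62 ± 0.50, adjusted p = 0.00623), again with no overlap between the groups. Kit reached 131, 149 and 161 CPM in GMP and 179, 172 and 146 CPM in LSK-labelled libraries, which overlapped (-0.17 ± 0.22, adjusted p = 0.701). Ly6a read 18, 21.2 and 26.1 CPM in treated GMP and 5.71, 6.43 and 9.11 CPM in treated LSK-labelled libraries. Each GMP library thus lay above each LSK-labelled library, without a call (1.62 ± 0.91, adjusted p = 0.314). In controls Ly6a was at most 0.746 CPM in any library. The stem cell markers Slamf1 and Procr were low and not called (adjusted p = 0.0651 and 0.0564). Cd34 lost its call without LSK-labelled replicate 1 (adjusted p = 0.0705) and in the fit of the 6 treated libraries alone (adjusted p = 0.0603). Since Ly6a did not set the LSK-labelled libraries apart and the early erythroid list had the largest share of calls, these cells are called LSK-labelled and are given no other name.

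LSK-labelled replicate 3 of the treated libraries was closer to GMP than the other libraries of its group. Over the shared genes, its log2 CPM correlated with the GMP libraries at 0.953 to 0.956. For LSK-labelled replicates 1 and 2 these values were 0.909 to 0.923. Within the group, replicate 3 correlated with each of the others at 0.960, and they with each other at 0.959. Of the 3 LSK-labelled libraries, replicate 3 was the closest to GMP at 77.0% of the genes called higher in GMP and at 65.2% of those called higher in LSK-labelled cells. Such a share was not taken over all genes tested. Replicate 3 also held transcripts of mature neutrophils. Ngp, a secondary granule gene, read 2.26, 3.23 and 215 CPM in the 3 LSK-labelled libraries and 1.08, 0.737 and 2.78 CPM in the GMP libraries. Camp, another secondary granule gene, read 1.56, 0 and 48.7 CPM in LSK-labelled libraries, and S100a9, a calcium-binding protein gene of neutrophils, read 3.17, 0.555 and 37.3 CPM. Over the 20 secondary granule and mature neutrophil genes in both tables, the summed level was 730.4 to 780.2 CPM in the GMP libraries. It was 83.9, 45.5 and 640.4 CPM in the LSK-labelled libraries, the last in replicate 3. Counts of calls are therefore given with and without that library.

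After the agonist, 1588 genes were called, 9.42% of those tested. They were 771 genes higher in GMP (4.57%) and 817 higher in LSK-labelled cells (4.85%). The median size of a called difference was 1.71 on the log2 scale, with quartiles of 1.17 and 2.74. Differences past 8-fold numbered 135 toward GMP and 191 toward LSK-labelled cells. The 3 libraries of one group all lay above those of the other at 1585 of the called genes and at 36.1% of all genes tested (GMP above at 19.6%, LSK-labelled cells above at 16.5%). At a called gene named below, a lack of overlap is thus no added support for its call. It was required of the genes named by the size of their difference. Without LSK-labelled replicate 3, 1210 genes were called higher in GMP and 870 in LSK-labelled cells. Leaving out any other single treated library lowered the counts to between 392 and 449 toward GMP and between 452 and 516 toward LSK-labelled cells. In all, 669 called genes, 42.1%, were called in each of the 12 fits that left out 1 library. Where a named gene's call ended in such a fit, in a fit of the 6 treated libraries alone, with a block on the replicate number or under another scaling, filter or tool, that is given in its paragraph.

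**Figure D1:**
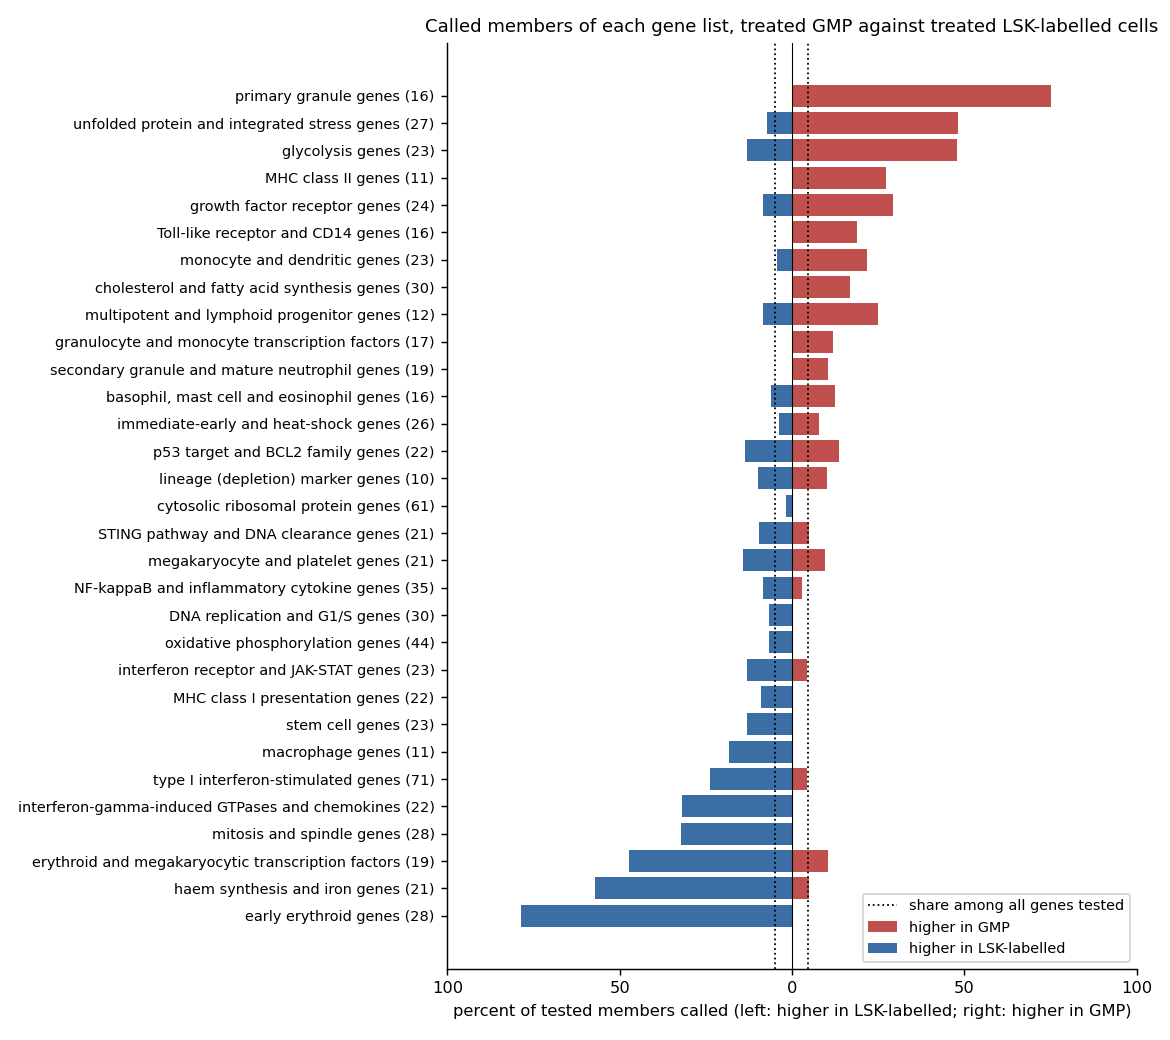
Share of the tested members of each gene list called higher in GMP (right, red) or higher in LSK-labelled cells (left, blue) after the agonist, with the number tested in brackets and the shares over all 16857 genes as dotted lines. Lists with 10 or more tested members are drawn. The primary granule list reaches farthest to the right, with 12 of 16 members, and the early erythroid list farthest to the left, with 22 of 28.

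Most genes of the primary granule list were called higher in GMP. The list holds genes of proteases and enzymes packed into granules at the promyelocyte stage. It also holds genes of other proteins, such as the receptor gene Igsf6 and the inhibitor gene Cst7. Of 16 tested genes of the list, 12 were called higher in GMP and 0 higher in LSK-labelled cells (median log2 difference 3.02, against 0.01 over all genes tested). Mpo, the myeloperoxidase gene, read 21216, 21228 and 25836 CPM in GMP and 1336, 572 and 5508 CPM in LSK-labelled libraries (3.20 ± 0.79, adjusted p = 0.0237). Elane, which encodes neutrophil elastase, read 14207, 13802 and 12536 against 1237, 469.6 and 2752 CPM (3.18 ± 0.89, adjusted p = 0.0416). In both genes the groups did not overlap, and replicate 3 was the highest LSK-labelled library. Igsf6, an immunoglobulin superfamily receptor of myeloid cells, read 362, 406 and 331 against 25.8, 21 and 52.9 CPM (3.46 ± 0.43, adjusted p = 3.6e-04). Cst7, the gene of cystatin F, an inhibitor of lysosomal cathepsins, read 543, 512 and 469.6 against 62, 33.2 and 106 CPM (2.92 ± 0.48, adjusted p = 0.00234). Prtn3 and Ctsg, the genes of proteinase 3 and cathepsin G, differed by 2.99 ± 0.74 and 3.12 ± 0.83, with adjusted p-values of 0.0232 and 0.0334. Between control libraries, 14 of the 16 genes were called higher in GMP and 0 higher in LSK-labelled cells. After the agonist, the list's count toward GMP ran from 7 to 14 over the 12 fits without 1 library. Of the 12 calls, 7 held in all 12 fits that left out 1 library, those of Prss57, Nkg7, Cst7, Ctsc, Serpinb1a, Igsf6 and Sirpa. The calls of Mpo, Elane, Prtn3 and Ctsg ended in every fit without GMP replicate 2 or 3 or LSK-labelled replicate 1 or 2, those of the last 3 genes also without GMP replicate 1, and that of Elane also without GMP control replicate 1, 2 or 3 or LSK-labelled control replicate 1. Adjusted p-values in those fits ran from 0.0524 to 0.136.

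Values for genes of later neutrophil stages depended on the fit and on LSK-labelled replicate 3. Of 19 secondary granule and mature neutrophil genes, 2 were called higher in GMP (10.5%, against 4.57% of all genes) and 0 higher in LSK-labelled cells. The median log2 difference was -0.42. Lyz2, the gene of lysozyme, was one of the 2, at 534, 554 and 416 CPM in GMP and 58, 34.7 and 195 CPM in LSK-labelled libraries (2.39 ± 0.49, adjusted p = 0.00918). Without LSK-labelled replicate 3, the library that held Ngp, 7 of these 19 genes were called higher in GMP and the median turned to 3.21. With every library kept, the median turned to 2.30 with the replicate block (3 of 19 called higher in GMP) and to 2.26 in the fit of the 6 treated libraries alone (2 of the 15 genes tested there). Lyz2 lost its call in the fit of the 6 treated libraries with the block (adjusted p = 0.0606).

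Some receptors for myeloid growth factors were higher in GMP. Of 24 tested growth factor receptor genes, 7 were called higher in GMP (29.2%, against 4.57% of all genes), 2 higher in LSK-labelled cells (8.33%, against 4.85%) and 15 not called. Csf2ra, the alpha chain of the GM-CSF receptor, read 98.3, 131 and 176 CPM in GMP and 25.7, 35.9 and 49.4 CPM in LSK-labelled libraries (1.87 ± 0.37, adjusted p = 0.00790). Il3ra, the alpha chain of the interleukin-3 receptor, read 49.2, 42.5 and 49.7 against 4.27, 7.24 and 17.3 CPM (2.29 ± 0.46, adjusted p = 0.00854). Csf1r and Csf3r, the receptors for M-CSF and G-CSF, differed by 4.63 ± 1.25 and 3.41 ± 0.99 (adjusted p = 0.0358 and 0.0484). The groups did not overlap at any of these 4 genes. Csf1r and Csf3r lost their calls in the fits without any 1 of the GMP libraries, LSK-labelled replicate 1 or 2, and GMP control replicate 1 or 2, Csf3r also without GMP control replicate 3 or LSK-labelled control replicate 1 or 3, with adjusted p up to 0.157. Csf1r also lost its call with the replicate block (adjusted p = 0.0697). Csf3r also lost its call in the fit of the 6 treated libraries without or with the block (adjusted p = 0.0832 and 0.0597) and when genes of either table entered as 0 (0.0524). The list's count toward GMP ran from 2 to 9 over the fits without 1 library, and 2 calls, those of Csf2ra and Il3ra, held in all of them. Epor, the erythropoietin receptor, was one of the 2 genes of this list higher in LSK-labelled cells and is described with the erythroid genes.

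Transcription factors and surface genes of the myeloid lineages were called in smaller numbers. Of 17 granulocyte and monocyte transcription factors, 2 (11.8%, against 4.57% of all genes) were called higher in GMP and 0 in the other direction. One was Gfi1, a zinc-finger repressor needed for neutrophil formation, at 92.9, 88.2 and 48.2 CPM in GMP and 4.76, 13.2 and 14.7 CPM in LSK-labelled libraries (2.81 ± 0.68, adjusted p = 0.0218). Its call ended without GMP replicate 1 or 2 or LSK-labelled replicate 1 or 2 (adjusted p from 0.0612 to 0.083). Of 23 monocyte and dendritic genes, 5 were called higher in GMP and 1, Zbtb46, a dendritic cell factor that read 18.9, 25.3 and 15.9 CPM in LSK-labelled and 0.538, 0 and 0.286 CPM in GMP libraries, higher in LSK-labelled cells. Fcer1g, the common gamma chain of Fc receptors, read 49.1, 47.8 and 46.3 CPM in GMP against 3.97, 6.49 and 12.9 CPM (2.62 ± 0.44, adjusted p = 0.00309). Without LSK-labelled replicate 3, 6 of the 17 factors and 10 of 25 monocyte and dendritic genes tested in that fit were called higher in GMP. Over all 12 fits without 1 library the counts toward GMP ran from 0 to 6 and from 1 to 10. Between control libraries, 6 of the 17 factors and 10 of the 23 monocyte and dendritic genes were called higher in GMP. Toward LSK-labelled cells the control calls were 0 and 1.

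The largest called differences toward GMP also included Dgkg, B3gnt8, Ak4, Plxnd1 and Ccdc125. Dgkg, a diacylglycerol kinase, read 26.1, 26 and 40.2 CPM in GMP and 1.83, 0 and 1.05 CPM in LSK-labelled libraries (4.99 ± 1.05, adjusted p = 0.0105). B3gnt8, a glycosyltransferase that extends N-glycans, read 34.2, 33 and 32.7 against 0.183, 0.0326 and 2.95 CPM (4.95 ± 1.04, adjusted p = 0.0105). B3gnt8 lost its call in the fit of the 6 treated libraries without or with the replicate block (adjusted p = 0.0515 and 0.0562), and Dgkg in that with the block (0.0645). Ak4, a mitochondrial adenylate kinase, read 33.3, 38.4 and 50.3 against 4.33, 0.718 and 5.83 CPM (3.48 ± 0.66, adjusted p = 0.00604). The groups did not overlap at these 3 genes, which the rule for naming them required. Plxnd1, a semaphorin receptor, and Ccdc125, a coiled-coil gene, differed by 3.41 ± 0.70 and 3.38 ± 0.55 (adjusted p = 0.00905 and 0.00224).

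Early erythroid genes made up the other pole of the comparison. Of 28 tested, 22 were called higher in LSK-labelled cells and 0 higher in GMP, with a median log2 difference of -8.01. Of the 22 calls, 21 held in all 12 fits that left out 1 library. Between control libraries, 23 of the 28 were called higher in LSK-labelled cells and 0 higher in GMP. Car2, a carbonic anhydrase, read 43.4, 53.5 and 39.2 CPM in GMP and 8837, 9334 and 6130.1 CPM in LSK-labelled libraries (-7.48 ± 0.28, adjusted p = 4.6e-08). Car1, the carbonic anhydrase of red cells, read 1.41, 0 and 0.104 against 5764, 5443 and 3314 CPM (-13.30 ± 1.65, adjusted p = 3.5e-04). All 3 LSK-labelled libraries were high in both genes, with replicate 3 the lowest. Epor, whose product receives the erythropoietin signal, read 0, 0.413 and 0 CPM in GMP and 232, 329.6 and 293 CPM in LSK-labelled libraries (-10.98 ± 1.34, adjusted p = 3.1e-04). Blood group and membrane genes showed the same split. Kel, the Kell antigen gene, had 0 counts in the 3 GMP libraries and 188, 259 and 182 CPM in LSK-labelled libraries, and was at least 7045-fold higher in LSK-labelled cells, taking 3 counts in the GMP group as the floor (adjusted p = 1.9e-04). Rhag, the Rh-associated glycoprotein gene, had 1 count over the GMP libraries against 247, 293 and 172 CPM in LSK-labelled libraries, a ratio of LSK-labelled cells to GMP of 23706 with a 95% exact counting interval of 4254 to 936363. Both genes were at or next to 0 in every treated GMP library, and Kel read 2.80, 3.03 and 0.0283 CPM in control GMP. Rhd read 1.28, 0.236 and 0.883 against 813, 842 and 540.4 CPM (-9.84 ± 1.04, adjusted p = 1.1e-04). Tspo2, a cholesterol-binding membrane protein of erythroblasts, read 0.0337, 0.0295 and 0.156 against 366, 381 and 236 CPM (-11.98 ± 0.58, adjusted p = 4.7e-07). No treated GMP library reached 2 CPM for any of the blood group and membrane genes named here.

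**Figure D2:**
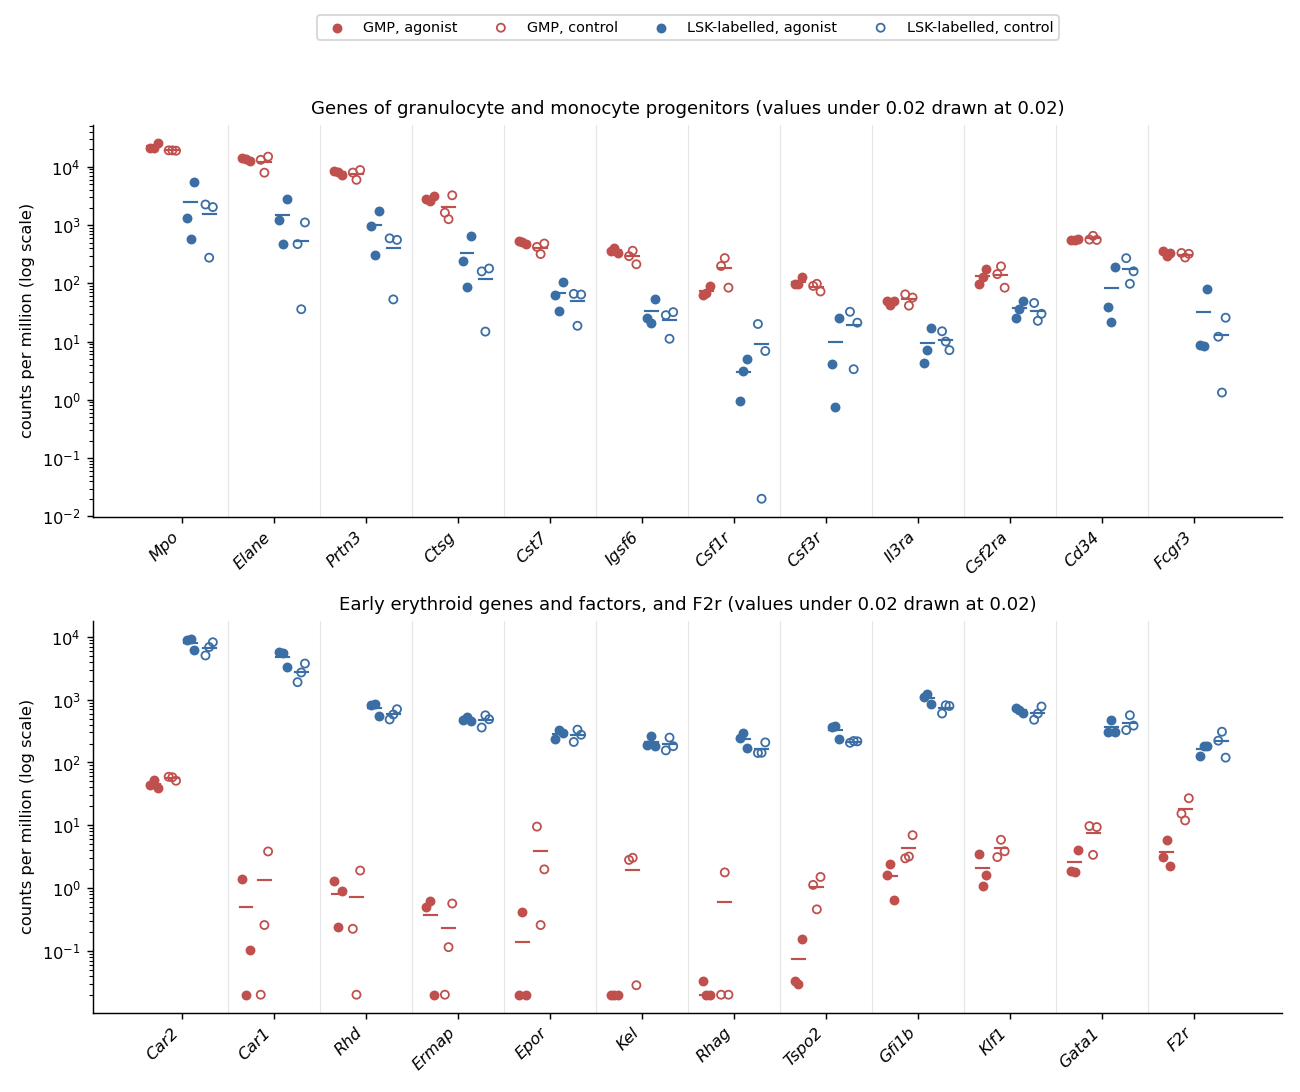
CPM of 12 genes of granulocyte and monocyte progenitors (upper panel) and of 11 erythroid genes with F2r (lower panel), on a log axis, for the 4 groups. Each point is 1 library, filled for the agonist and open for controls, and bars are group means. The treated GMP libraries lie above the treated LSK-labelled libraries at each gene of the upper panel, and below them at each gene of the lower panel.

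Transcription factors of the erythroid lineage were called mainly in the same direction. Of 19 tested erythroid and megakaryocytic factors, 9 were called higher in LSK-labelled cells and 2 higher in GMP. Gata1, the zinc-finger factor that drives erythroid and megakaryocytic genes, read 1.85, 1.83 and 4.03 CPM in GMP and 310.0, 475 and 310.3 CPM in LSK-labelled libraries (-7.14 ± 0.52, adjusted p = 8.8e-06). Klf1, which activates beta-globin and red cell membrane genes, read 3.47, 1.09 and 1.58 against 729.6, 683 and 611 CPM (-8.37 ± 0.48, adjusted p = 1.2e-06). Gfi1b, the relative of Gfi1 that acts in the erythroid lineage, read 1.62, 2.45 and 0.649 against 1108, 1225 and 858 CPM (-9.41 ± 0.56, adjusted p = 1.6e-06). Gfi1 and Gfi1b thus differed in opposite directions between the same libraries. Nfia, Bcl11a and Tal1 were called in the direction of Gata1, by -5.32, -2.52 and -2.04. Fli1, an ETS factor of megakaryocytes that is also expressed in stem and myeloid cells, was one of the 2 factors higher in GMP, at 158, 159 and 184 against 23.8, 21 and 65.6 CPM (2.18 ± 0.46, adjusted p = 0.0102).

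Haem synthesis was split inside the pathway. Of 21 tested haem synthesis and iron genes, 12 were called higher in LSK-labelled cells and 1, Alas1, higher in GMP. Alas1 encodes the housekeeping form of the first enzyme of the pathway, and read 2334, 2555 and 2715 CPM in GMP and 276, 144 and 607 CPM in LSK-labelled libraries (2.89 ± 0.43, adjusted p = 0.00130). Alad, the gene of the next enzyme, read 145, 132 and 119 against 935, 880.1 and 543 CPM (-2.57 ± 0.25, adjusted p = 6.3e-05). Urod, Cpox and Fech, which encode later steps up to the insertion of iron, were each called higher in LSK-labelled cells, by -2.42 ± 0.25, -3.14 ± 0.39 and -2.04 ± 0.23. Slc25a38, the mitochondrial carrier that brings in glycine for the first step, differed by -2.35 ± 0.25 in the same direction (adjusted p = 1.0e-04). So did the iron genes Slc11a2, a transporter, by -2.38 ± 0.26, and Steap3, an endosomal ferric reductase, by -2.09 ± 0.19.

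Glycolysis genes were called more toward GMP, with pairs of isozymes that pointed in opposite directions. Of 23 tested, 11 were called higher in GMP, 3 higher in LSK-labelled cells and 9 not called, and the median log2 difference was 1.18. In control libraries 5 were called toward GMP and 6 toward LSK-labelled cells, with a median of 0.54 against 0.04 over all genes tested. For a change of the contrast with the agonist, edgeR called 0 interactions over all genes tested and DESeq2 called 179. Pkm, the pyruvate kinase of most tissues, read 1399, 1432 and 2124 CPM in GMP and 54.3, 22.3 and 394 CPM in LSK-labelled libraries (3.40 ± 0.80, adjusted p = 0.0181). Pklr, the pyruvate kinase of liver and red cells, read 0.0673, 0 and 0.182 against 40.1, 43.3 and 61.9 CPM (-9.07 ± 0.85, adjusted p = 4.5e-05). Phosphofructokinase showed a like split, with Pfkp, the platelet form, higher in GMP and Pfkm, the muscle form, higher in LSK-labelled cells. Pfkp read 169, 150.4 and 203 against 31.1, 32.3 and 55.8 CPM (2.13 ± 0.26, adjusted p = 3.5e-04). Pfkm read 11.3, 10.2 and 16.7 against 31.1, 53.8 and 62.2 CPM (-1.94 ± 0.36, adjusted p = 0.00561). The groups did not overlap at these 4 genes. Gpi1 and Pgam1, further enzymes of the pathway, were higher in GMP by 1.62 ± 0.21 and 2.57 ± 0.44 (adjusted p = 5.0e-04 and 0.00343). Of the hexokinases, Hk2 was called higher in GMP (1.70 ± 0.39, adjusted p = 0.0161) and Hk1 was not called (-0.70 ± 0.34, adjusted p = 0.229). Glucose transporters Slc2a1 and Slc2a3 differed by 2.10 ± 0.55 and -1.81 ± 0.47 (adjusted p = 0.0300 and 0.0290). The calls of Pkm, Hk2 and Slc2a1 ended without GMP replicate 3 or LSK-labelled replicate 1, those of Hk2 and Slc2a1 also without GMP replicate 2, and that of Slc2a1 also without GMP replicate 1 or LSK-labelled replicate 2. The call of Slc2a3 ended without GMP replicate 1 or 2 or any LSK-labelled replicate, and the adjusted p-values of these 4 genes in such fits ran from 0.0507 to 0.119. Pkm and Slc2a1 also lost their calls in the fit of the 6 treated libraries alone (adjusted p = 0.0720 and 0.0828), Slc2a1 also in that with the replicate block (0.0540), and Slc2a3 with limma-voom (0.0531). The list's count toward GMP ran from 5 to 12 over the fits without 1 library, and 5 of the 11 calls held in all of them.

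Several chaperones of the endoplasmic reticulum, which fold secreted and granule proteins, were higher in GMP. Of 27 tested unfolded protein and integrated stress genes, 13 were called higher in GMP, 2 higher in LSK-labelled cells and 12 not called, with a median log2 difference of 1.35. Calr, the lectin chaperone calreticulin, read 4604, 5151 and 4749 CPM in GMP and 1077, 924 and 1905 CPM in LSK-labelled libraries (1.89 ± 0.24, adjusted p = 4.7e-04). Hspa5, the main luminal chaperone BiP, read 2305, 2487 and 2728 against 933, 979 and 1375 CPM (1.19 ± 0.19, adjusted p = 0.00192). Sdf2l1, a cofactor of BiP, read 1449, 1507 and 1369 against 292, 241 and 405 CPM (2.20 ± 0.24, adjusted p = 1.3e-04). Each GMP library lay above each LSK-labelled library at these 3 genes. Ern1, which encodes the stress sensor IRE1, and Xbp1, whose mRNA that sensor splices, were higher in GMP by 1.94 ± 0.19 and 1.02 ± 0.18 (adjusted p = 6.7e-05 and 0.00327). Of the 13 calls, 10 held in all 12 fits that left out 1 library. The 2 genes in the other direction belong to the integrated stress response. Asns, the asparagine synthetase gene, read 112, 126 and 111 CPM in GMP and 777, 987 and 614 CPM in LSK-labelled libraries (-2.77 ± 0.22, adjusted p = 1.4e-05). Ddit3, the gene of the factor CHOP, read 64.6, 66.1 and 66.6 against 192, 196 and 112 CPM (-1.34 ± 0.24, adjusted p = 0.00480), with 21.7, 16.4 and 15.5 CPM in control GMP and 41.2, 34.9 and 50.1 CPM in control LSK-labelled libraries.

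**Figure D3:**
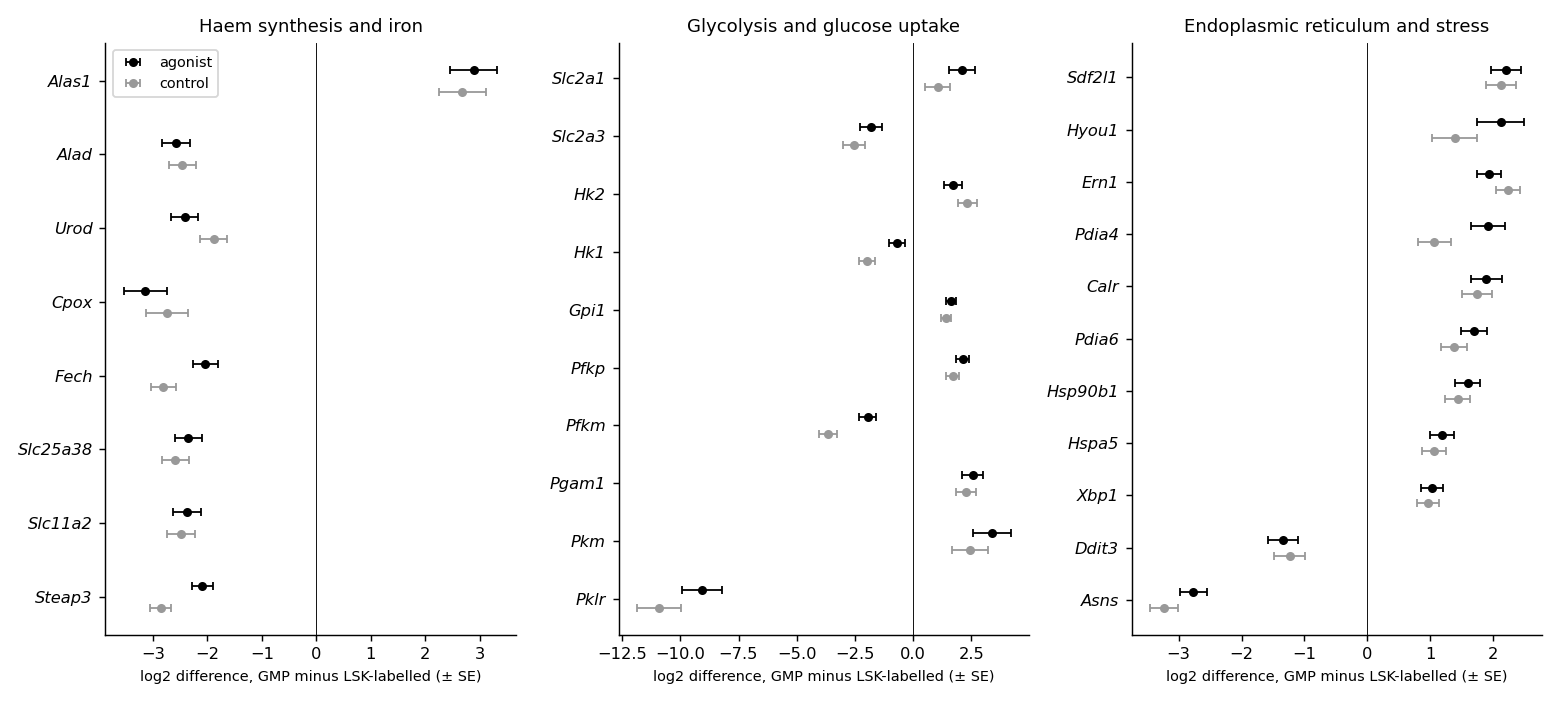
Log2 difference of GMP minus LSK-labelled cells (± SE) after the agonist (black) and in controls (grey) for haem and iron genes, glycolysis and glucose uptake genes and endoplasmic reticulum and stress genes. Alas1 lies at 2.89 after the agonist while the other haem genes drawn lie between -3.14 and -2.04, and the isozyme pairs Pkm and Pklr, and Pfkp and Pfkm, lie on opposite sides of 0.

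Interferon-stimulated genes were called mainly toward LSK-labelled cells. The type I interferon list had 71 tested members, with 17 calls toward LSK-labelled cells (23.9%, against 4.85% of all genes) and 3 toward GMP (4.23%, near the 4.57% of all genes), with a median log2 difference of -0.43. In controls the same list had 14 calls toward LSK-labelled cells and 10 toward GMP. Lgals9, the gene of galectin-9, read 568, 571 and 507 CPM in treated GMP and 4634, 5307 and 2965 CPM in treated LSK-labelled libraries (-2.97 ± 0.22, adjusted p = 9.1e-06). Ube2l6, the conjugating enzyme of the ubiquitin-like protein ISG15, read 47.7, 45 and 44.4 against 271, 268 and 222 CPM (-2.47 ± 0.29, adjusted p = 2.1e-04). Samhd1, a dNTP hydrolase that restricts viruses, read 95.8, 71.8 and 63.3 against 186, 267 and 158 CPM (-1.41 ± 0.23, adjusted p = 0.00216). The groups did not overlap at these 3 genes. Irf7, the factor that amplifies interferon production, read 25.4, 17.3 and 31.6 against 67.3, 77.9 and 84.9 CPM (-1.63 ± 0.34, adjusted p = 0.00961). Irf7 was at most 0.963 CPM in control GMP and 6.62 CPM in control LSK-labelled libraries. Of the 3 genes called higher in GMP, Ly6e, a membrane protein that limits viral entry, read 2345, 2208 and 2264 against 1174, 1129.6 and 1429 CPM (0.87 ± 0.24, adjusted p = 0.0382), and Slfn9 and Tor3a differed by 1.54 ± 0.35 and 1.16 ± 0.32. Of the 17 calls toward LSK-labelled cells, 5 held in all 12 fits that left out 1 library, and of the 3 toward GMP, 0. Irf7 lost its call without GMP replicate 2 (adjusted p = 0.0672) and Slfn9 without GMP replicate 3 or LSK-labelled replicate 1 or 2 (up to 0.0713). Ly6e and Tor3a lost theirs without any 1 GMP library, LSK-labelled replicate 1 or 2 or GMP control replicate 1, Ly6e also without LSK-labelled control replicate 1 and Tor3a also without GMP control replicate 2 or 3 (up to 0.169). Tor3a also lost its call in the fit of the 6 treated libraries alone (0.0513). The counts toward LSK-labelled cells ranged from 6 to 20 over these fits and those toward GMP from 0 to 7.

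The interferon-gamma-induced GTPases, which attack the vacuoles of intracellular pathogens, all pointed toward LSK-labelled cells where they were called. Of 22 tested members of the list of these GTPases and interferon-gamma-induced chemokines, 7 were called higher in LSK-labelled cells and 0 higher in GMP. The median log2 difference was -1.59 against -0.43 in controls, where 5 members were called higher in LSK-labelled cells and 2 higher in GMP. For the change of the contrast with the agonist, edgeR called 0 interactions over all genes tested and DESeq2 called 179. Igtp, an immunity-related GTPase, read 93.2, 91.7 and 102 CPM in treated GMP and 394, 422 and 328 CPM in treated LSK-labelled libraries (-2.00 ± 0.30, adjusted p = 0.00130). In controls the groups overlapped, at 9.96, 26.7 and 23.9 CPM in GMP and 26, 22 and 19.8 CPM in LSK-labelled libraries. Irgm1, which regulates the other members, read 48.6, 48.3 and 71.2 against 166, 247 and 176 CPM (-1.81 ± 0.31, adjusted p = 0.00327). Gbp7, a guanylate-binding protein, read 109.7, 121 and 138 against 315, 459 and 341 CPM (-1.60 ± 0.22, adjusted p = 7.2e-04). The treated groups did not overlap at these 3 genes. Ifi47 differed by -1.20 ± 0.23 (adjusted p = 0.00690) and Gbp2 by -1.66 ± 0.43 (adjusted p = 0.0297). Tgtp1 and Tgtp2, at -3.03 ± 0.31 and -2.34 ± 0.26, are near-identical copies, so the authors' counting may have split their reads unevenly. The call of Gbp2 ended with the replicate block (adjusted p = 0.0702) and without any 1 of the 6 treated libraries (adjusted p from 0.0541 to 0.135), and the other 6 calls held in all 12 fits that left out 1 library.

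Inhibitors of NF-kappaB were among the called genes of the inflammatory list. Of 35 tested NF-kappaB and inflammatory cytokine genes, 3 were called higher in LSK-labelled cells (8.57%, against 4.85% of all genes) and 1 higher in GMP (2.86%, against 4.57%). Nfkbia, which encodes the inhibitor I-kappa-B-alpha, read 187, 163 and 134 CPM in treated GMP and 1192, 1439 and 967 CPM in treated LSK-labelled libraries (-2.90 ± 0.32, adjusted p = 1.7e-04). In controls the groups overlapped, at 209, 188 and 205 CPM in GMP and 197, 124 and 346 CPM in LSK-labelled libraries. Tnfaip3, which encodes the deubiquitinase A20, another brake on NF-kappaB, read 54.4, 16.3 and 34.8 against 370.4, 400.0 and 288 CPM (-3.33 ± 0.40, adjusted p = 2.5e-04). Tnfaip2 read 24.5, 25.2 and 18.7 against 139, 189 and 142 CPM (-2.78 ± 0.37, adjusted p = 6.0e-04). All 3 genes were high in each treated LSK-labelled library. The gene higher in GMP was Ccl3, the chemokine MIP-1-alpha, at 96.9, 139.6 and 92.3 against 21.9, 7.86 and 31.8 CPM (2.42 ± 0.56, adjusted p = 0.0166), whose call ended without GMP replicate 2 or LSK-labelled replicate 1 or 2 (up to 0.0648) and in the fit of the 6 treated libraries with the replicate block (0.0578). With LSK-labelled replicate 3 left out, 6 genes of 36 tested were called higher in GMP and 3 higher in LSK-labelled cells. Gadd45g, a stress-induced growth arrest gene, read 14.4, 21.8 and 25 against 136, 177 and 132 CPM (-2.86 ± 0.25, adjusted p = 3.0e-05). Its relative Gadd45b was higher in GMP (2.42 ± 0.62, adjusted p = 0.0274), a call that ended without any 1 GMP library or LSK-labelled replicate 2 (up to 0.0888) and in the fit of the 6 treated libraries without or with the replicate block (0.0687 and 0.0890).

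**Figure D4:**
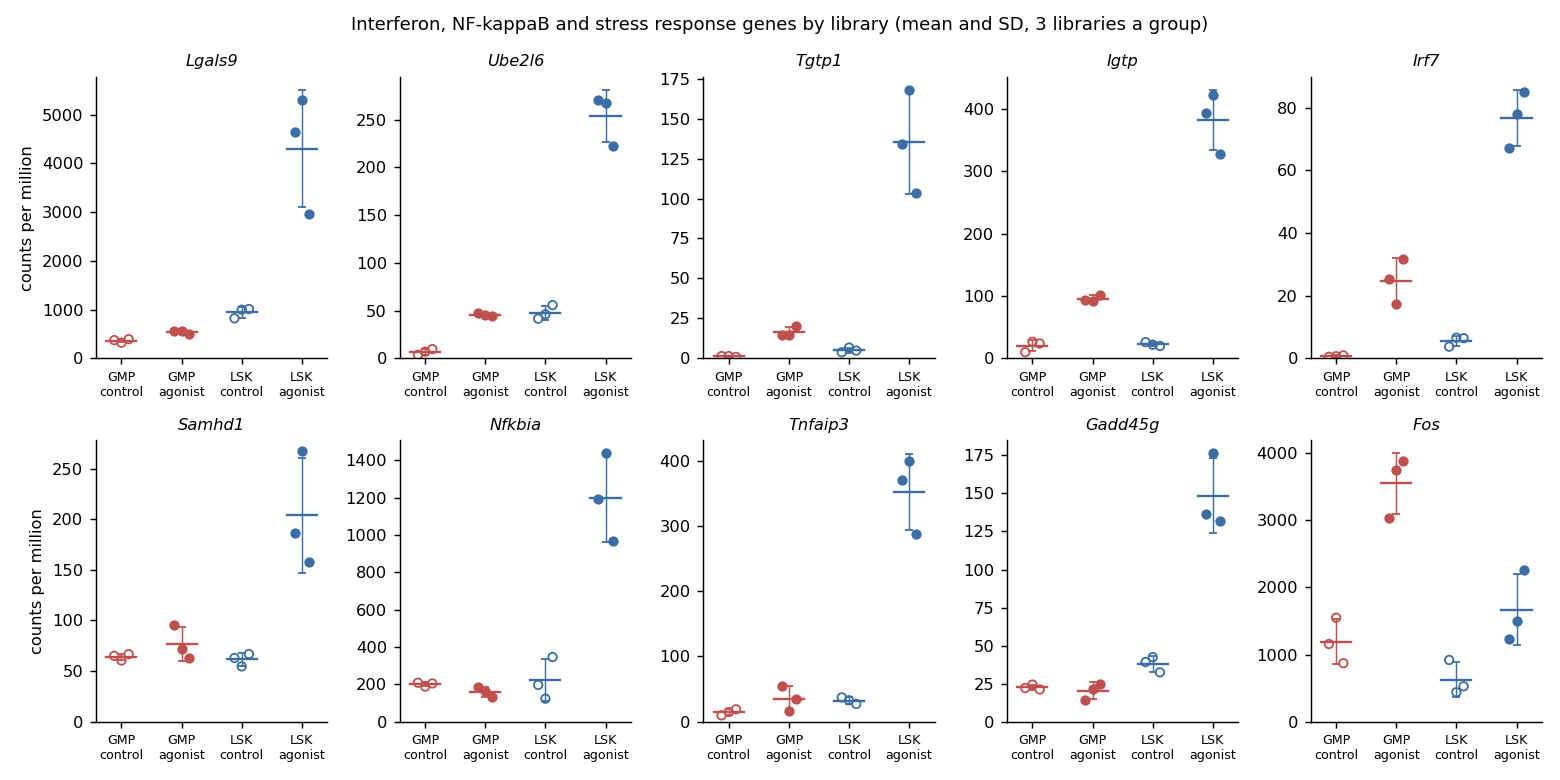
CPM by library of 10 interferon, NF-kappaB and stress response genes in the 4 groups, with the mean and SD of 3 libraries. For Nfkbia, the 3 treated LSK-labelled libraries lie between 967 and 1439 CPM and all other 9 libraries at or below 346 CPM. Fos is the gene drawn whose treated GMP libraries lie above the treated LSK-labelled libraries.

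The receptor of the agonist did not pass the test. Tmem173, the gene of STING, read 12, 14.7 and 39.1 CPM in treated GMP and 1.89, 0.131 and 5.83 CPM in treated LSK-labelled libraries (3.06 ± 1.10, adjusted p = 0.106). Each GMP library lay above each LSK-labelled library. Over all genes tested, 4.57% were called higher in GMP and 4.85% higher in LSK-labelled cells. Of 21 tested STING pathway and DNA clearance genes, 1 was called higher in GMP (4.76%, near the share of all genes) and 2 higher in LSK-labelled cells (9.52%). The one higher in GMP was Ikbke, which encodes the kinase IKK-epsilon, a relative of TBK1, at 36.8, 51.5 and 45.9 against 3.81, 4.08 and 13.8 CPM (2.63 ± 0.49, adjusted p = 0.00545). Of 23 interferon receptor and JAK-STAT genes, 3 were called higher in LSK-labelled cells (13.04%) and 1 higher in GMP (4.35%, near the share of all genes). Jak1, a kinase of the interferon receptors, read 106, 117 and 125 CPM in GMP and 247, 225 and 219.6 CPM in LSK-labelled libraries (-0.99 ± 0.16, adjusted p = 0.00208). Stat3, which acts behind the G-CSF and interleukin-6 receptors, was the one higher in GMP (1.33 ± 0.36, adjusted p = 0.0374), and its call ended without any 1 GMP library, LSK-labelled replicate 1 or 2, GMP control replicate 1 or LSK-labelled control replicate 1 (up to 0.145). Of 22 MHC class I presentation genes, 2 were called higher in LSK-labelled cells (9.09%). Among them was H2-T23, a non-classical class I gene, at 185, 212 and 242 against 445, 489 and 439.7 CPM (-1.10 ± 0.22, adjusted p = 0.00801). Of 16 Toll-like receptor and CD14 genes, 3 were called higher in GMP (18.75%) and 0 in the other direction. Among the 3 was Irak3, which dampens Toll-like receptor signals (2.09 ± 0.44, adjusted p = 0.0102, and 0.0521 in the fit of the 6 treated libraries with the replicate block). Without LSK-labelled replicate 3, 4 STING pathway genes, 6 Toll-like receptor genes, 3 JAK-STAT genes and 2 MHC class I genes were called higher in GMP.

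Immediate-early and heat-shock genes had 26 tested members, with 2 called higher in GMP (7.69%, against 4.57% of all genes) and 1 higher in LSK-labelled cells (3.85%, against 4.85%). Fos, an AP-1 subunit, read 3029, 3746 and 3876 CPM in GMP and 1239, 1506 and 2258 CPM in LSK-labelled libraries (1.09 ± 0.31, adjusted p = 0.0442). Klf6, a zinc-finger factor, read 985, 1040.5 and 979 against 369.9, 391 and 616 CPM (1.13 ± 0.30, adjusted p = 0.0315). Both lost their calls without any 1 GMP library or LSK-labelled replicate 1 or 2, and Fos also without GMP control replicate 1 or LSK-labelled control replicate 3 (adjusted p up to 0.166). The fit without LSK-labelled replicate 3 called 5 genes of the list higher in GMP and 2 higher in LSK-labelled cells.

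Promoter sequence was read for genes of these groups from the RefSeq table of GRCm38.p6, which held a window for 10766 of 16849 tested gene symbols. Both strands of the 250 bases before each start were searched for 5 motifs. They were GAAANNGAA (a core of the interferon-stimulated response element), GGGANNTTC (part of an NF-kappaB site), AGATAA (bound by erythroid zinc-finger factors such as Gata1), GAGGAAGT (a site of the myeloid ETS factor PU.1) and TTGCNNAA (a C/EBP site), where N is any base. The response element core occurred in 6.34% of all 10766 windows and in 6 of 7 windows of the interferon-gamma-induced genes called higher in LSK-labelled cells. It occurred in 34 of the 70 windows of the tested genes of both interferon lists and in 9 of the 20 windows of those called higher in LSK-labelled cells. For the type I interferon list alone, it occurred in 3 of the 13 windows of the genes called in that direction. The NF-kappaB motif occurred in 2.97% of all windows and in 1 of the 3 windows of the NF-kappaB genes called higher in LSK-labelled cells, that of Nfkbia. It also occurred in 2 of the 14 windows of the early erythroid genes called. The GATA site occurred in 6.20% of all windows and in 3 of 14 windows of the early erythroid genes called. It was not particular to them, since it also occurred in 3 of the 7 windows of the interferon-gamma-induced genes called higher in LSK-labelled cells. The PU.1 site occurred in 2.63% of all windows and in 4 of 9 windows of the primary granule genes called. The 6 windows that follow are printed 5′ to 3′ on the strand of the gene and ending 1 base before its RefSeq start, because they belong to genes described above whose windows hold the motif. Pklr belongs to the glycolysis list and not to the early erythroid genes counted for the GATA site. Capitals mark the match, which may lie on either strand. The C/EBP motif occurred in 7.59% of all windows and in 1 of the 9 windows of the primary granule genes called. A match describes the letters in the window and was not tested as a binding site.
Interferon-stimulated response element core, with no match of the other 4 motifs in the window.
Igtp, chr11:58199306-58199555, plus strand: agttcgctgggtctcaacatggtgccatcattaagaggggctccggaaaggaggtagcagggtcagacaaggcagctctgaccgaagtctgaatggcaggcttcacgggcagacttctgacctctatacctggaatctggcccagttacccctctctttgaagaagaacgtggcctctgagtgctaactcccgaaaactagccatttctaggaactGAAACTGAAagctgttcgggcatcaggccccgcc
Lgals9, chr11:78984925-78985174, minus strand: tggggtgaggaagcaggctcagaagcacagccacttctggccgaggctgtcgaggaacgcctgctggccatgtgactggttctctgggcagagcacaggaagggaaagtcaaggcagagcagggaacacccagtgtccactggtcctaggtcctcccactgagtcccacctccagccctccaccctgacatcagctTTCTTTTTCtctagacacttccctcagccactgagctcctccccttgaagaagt
NF-kappaB motif, with 1 match of the response element core elsewhere in the window that does not overlap it.
Nfkbia, chr12:55492648-55492897, minus strand: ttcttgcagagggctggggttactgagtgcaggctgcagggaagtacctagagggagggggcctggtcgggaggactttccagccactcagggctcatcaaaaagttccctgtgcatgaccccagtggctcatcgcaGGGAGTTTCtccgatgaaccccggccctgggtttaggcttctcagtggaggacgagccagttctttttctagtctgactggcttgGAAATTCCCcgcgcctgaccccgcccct
GATA site, with no match of the other 4 motifs in the window.
Epor, chr9:21963577-21963826, minus strand: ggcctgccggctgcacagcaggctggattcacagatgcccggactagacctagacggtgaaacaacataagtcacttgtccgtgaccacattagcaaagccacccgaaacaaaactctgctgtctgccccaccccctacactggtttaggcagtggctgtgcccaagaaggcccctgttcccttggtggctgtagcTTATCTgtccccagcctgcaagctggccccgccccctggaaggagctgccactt
Pklr, chr3:89135892-89136141, plus strand: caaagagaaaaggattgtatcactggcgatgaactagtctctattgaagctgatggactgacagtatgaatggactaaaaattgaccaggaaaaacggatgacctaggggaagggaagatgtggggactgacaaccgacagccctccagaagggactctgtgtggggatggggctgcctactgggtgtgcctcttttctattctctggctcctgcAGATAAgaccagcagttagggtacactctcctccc
PU.1 site, with no match of the other 4 motifs in the window.
Elane, chr10:79886062-79886311, plus strand: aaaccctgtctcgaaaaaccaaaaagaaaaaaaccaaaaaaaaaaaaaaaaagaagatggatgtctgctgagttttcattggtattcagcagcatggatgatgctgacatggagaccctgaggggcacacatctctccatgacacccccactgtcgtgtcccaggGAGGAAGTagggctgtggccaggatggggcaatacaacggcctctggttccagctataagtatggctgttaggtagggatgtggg
The match began 34 bases before the start of Igtp, 54 before that of Lgals9, 54 before that of Epor, 35 before that of Pklr and 85 before that of Elane, each of these 5 windows holding 1 match. The Nfkbia window held 2 matches, 113 and 28 bases before the start. The RefSeq start lay 22 bases from the start in the deposited tables for Lgals9, 70 for Epor and 65 for Elane, and at the same base for the other genes shown.

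Some genes of mitosis were higher in LSK-labelled cells. Of 28 tested mitosis and spindle genes, 9 were called higher in LSK-labelled cells, 0 higher in GMP and 19 not called, with a median log2 difference of -0.66. Cenpf, a kinetochore gene, read 23.7, 23.6 and 29.7 CPM in GMP and 104, 144 and 74.7 CPM in LSK-labelled libraries (-2.07 ± 0.28, adjusted p = 6.2e-04). Mki67, the gene of the proliferation antigen Ki-67, read 133, 133 and 127 against 399, 440.3 and 287 CPM (-1.52 ± 0.25, adjusted p = 0.00260). Ube2c, the ubiquitin-conjugating enzyme of the anaphase-promoting complex, read 56.6, 41.6 and 35 against 297, 289.9 and 106 CPM (-2.38 ± 0.40, adjusted p = 0.00265). In all 3 genes LSK-labelled replicate 3 was the lowest library of its group and still lay above each GMP library. Of 30 DNA replication and G1/S genes, 2 were called higher in LSK-labelled cells (6.67%, against 4.85% of all genes), among them Ccne1, the cyclin E1 gene, at 71.7, 82.9 and 63.4 against 148, 213 and 186 CPM (-1.33 ± 0.26, adjusted p = 0.00677). In controls 10 of the 28 mitosis genes and 7 of the 30 replication genes were called in that direction. Over the fits without 1 library the count of mitosis genes called toward LSK-labelled cells ran from 6 to 10, and 6 of the 9 calls held in all of them.

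Markers of the other lineages were called in both directions, where 4.85% of all genes were called higher in LSK-labelled cells and 4.57% higher in GMP. Of 21 megakaryocyte and platelet genes, 3 were called higher in LSK-labelled cells (14.3%) and 2 higher in GMP (9.52%). F2r, the thrombin receptor gene, read 3.13, 5.90 and 2.26 CPM in GMP and 126, 182 and 181 CPM in LSK-labelled libraries (-5.44 ± 0.50, adjusted p = 3.9e-05). Gp5, a platelet glycoprotein gene, read 2.12, 0 and 1.25 against 65.5, 65.9 and 63.5 CPM (-5.86 ± 0.92, adjusted p = 0.00186). Neither gene overlapped between the groups. Of 23 stem cell genes, 3 were called higher in LSK-labelled cells (13.04%) and 0 higher in GMP. When LSK-labelled replicate 3 was left out, 4 stem cell genes were called higher in GMP and 3 higher in LSK-labelled cells. The 3 genes called with all libraries were Mllt3, a chromatin factor of stem cells and erythroid progenitors (-3.30 ± 0.31, adjusted p = 4.0e-05), Pdzk1ip1 (-3.90 ± 0.56, adjusted p = 9.8e-04) and Txnip, an inhibitor of thioredoxin (-1.98 ± 0.35, adjusted p = 0.00352). Of 16 basophil, mast cell and eosinophil genes, 2 were called higher in GMP (12.5%) and 1 higher in LSK-labelled cells (6.25%). Hdc, the histidine decarboxylase that makes histamine, read 408, 473 and 472 CPM in GMP and 25.9, 17.2 and 119 CPM in LSK-labelled libraries (3.06 ± 0.61, adjusted p = 0.00756). Of 12 multipotent and lymphoid progenitor genes, 3 were called higher in GMP (25%) and 1 (8.33%), Ikzf1, the Ikaros factor gene, higher in LSK-labelled cells at 159, 150.4 and 126 against 442, 428 and 303 CPM (-1.43 ± 0.19, adjusted p = 7.1e-04).

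Lists of other cells that a bone marrow sort could hold were checked. The 13 B cell genes in both tables summed to 127.2 to 132.2 CPM in treated GMP. In treated LSK-labelled libraries they summed to 6.79 to 41.5 CPM. Of the 8 tested, 1 was called, Cd79b, a B cell receptor chain (2.58 ± 0.51, adjusted p = 0.00748). The 11 T and NK cell genes in both tables, 3 of them tested, summed to 511 to 570.1 CPM in GMP. In LSK-labelled libraries they summed to 26.7 to 130.2 CPM. Almost all of these sums came from Nkg7, a granule membrane gene that is also on the primary granule list. Of 11 macrophage genes, 2 were called higher in LSK-labelled cells (18.2%, against 4.85% of all genes) and 0 higher in GMP. The 2 were the iron exporter gene Slc40a1 (-3.48 ± 0.35, adjusted p = 7.7e-05) and Apoe, the apolipoprotein E gene (-1.44 ± 0.26, adjusted p = 0.00435). The median of this list pointed the other way, at 1.365, and ran from -0.35 to 1.94 over the fits without 1 library. The part of other cells in the results was not tested.

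The contrast between the cell types was in part the same in controls. In control libraries, which have no library in common with the treated ones, 1943 genes were called (11.5%), 767 higher in GMP (4.55%) and 1176 higher in LSK-labelled cells (6.98%). Of the 1588 genes called after the agonist, 903 were also called in controls in the same direction, 56.9% of the treated calls and 46.5% of the control calls, and 2 were called in the opposite direction. Of the 683 called after the agonist alone, 612 had a difference of the same sign in controls. Across the 16857 genes, which are not independent replicates, the log2 differences of the 2 comparisons correlated with Pearson's r of 0.391 and Spearman's rho of 0.436. Igsf6, Calr, Alad and Rhd were examples of close values, at 3.46, 1.89, -2.57 and -9.84 after the agonist and 3.60, 1.75, -2.46 and -9.70 in controls, while Gata1 read -7.14 and -5.83 (interaction -1.31 ± 0.57, unadjusted p = 0.0407).

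**Figure D5:**
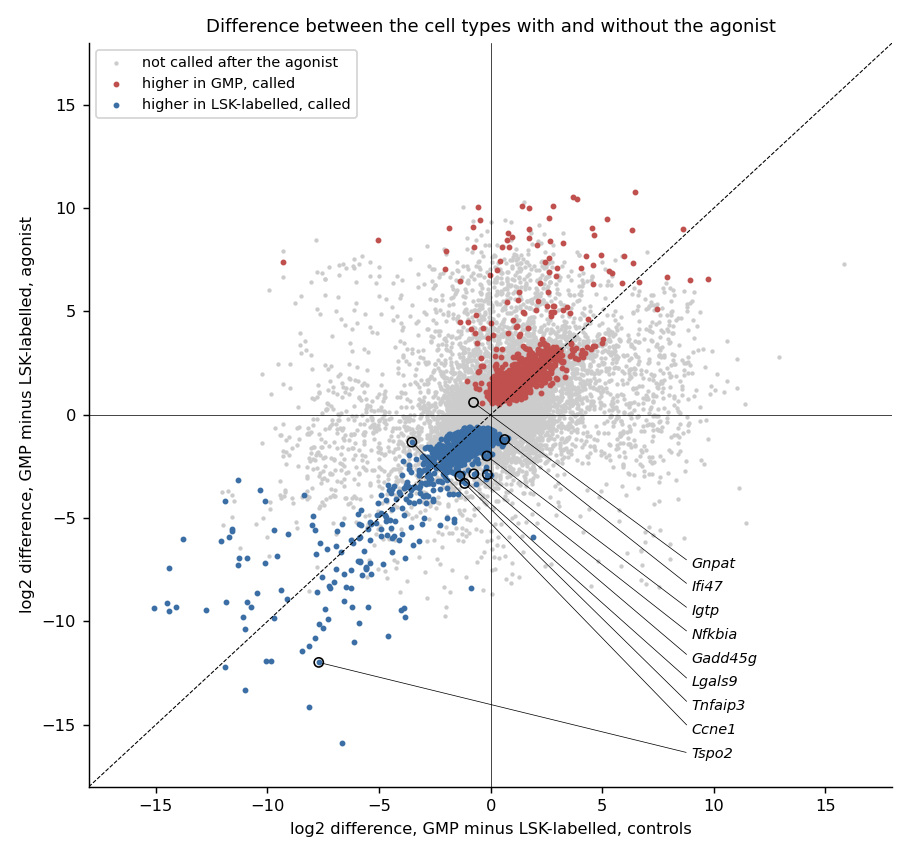
Log2 difference of GMP minus LSK-labelled cells in controls (horizontal) and after the agonist (vertical) for the 16857 genes tested, with genes called after the agonist in red (higher in GMP) and blue (higher in LSK-labelled cells). The dashed line marks equal differences. Lgals9, Nfkbia, Tnfaip3, Gadd45g, Igtp, Ifi47 and Tspo2, ringed, lie below that line, and Ccne1 and Gnpat above it.

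Whether the contrast itself changed with the agonist was tested by the interaction of cell type and treatment. In edgeR 0 genes passed an adjusted p of 0.05, with a smallest adjusted p of 0.177, while 1707 genes (10.1%) had an unadjusted p under 0.05. DESeq2 called 179 genes, 91 with a difference more toward GMP after the agonist and 88 more toward LSK-labelled cells, and limma-voom called 0. Without LSK-labelled replicate 3, edgeR called 22 genes, 18 more toward GMP and 4 more toward LSK-labelled cells, the latter being Lgals9, Nfkbia, Tspo2 and Ifi47. Other fits without 1 library gave between 0 and 2. The 10 genes with the smallest interaction p-values are described with unadjusted p-values from edgeR. None of them passed the adjusted threshold in edgeR or limma-voom with all libraries, while all 10 were among the 179 DESeq2 calls (adjusted p from 6.2e-07 to 0.00270).

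Of those 10 genes, 5 had an interaction toward LSK-labelled cells. The difference of Nfkbia moved from -0.15 in controls to -2.90 after the agonist (interaction -2.75 ± 0.43, unadjusted p = 3.1e-05, adjusted p = 0.177). That of Gadd45g moved from -0.75 to -2.86 (interaction -2.11 ± 0.33, unadjusted p = 3.2e-05). Lgals9 moved from -1.38 to -2.97 (interaction -1.59 ± 0.29, unadjusted p = 1.2e-04), with 374, 322 and 394 CPM in control GMP and 822, 998 and 1012 CPM in control LSK-labelled libraries. Ifi47 moved from 0.63 to -1.20 (interaction -1.83 ± 0.33, unadjusted p = 1.0e-04). Tspo2 read 1.12, 0.458 and 1.5 CPM in control GMP, above the treated GMP libraries (interaction unadjusted p = 2.7e-05).

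The other 5 genes had an interaction toward GMP. Ccne1 read 24.1, 47.2 and 26.7 CPM in control GMP and 320.3, 395 and 414 CPM in control LSK-labelled libraries, so that its difference moved from -3.53 to -1.33 (interaction 2.20 ± 0.36, unadjusted p = 4.5e-05). Gnpat, an enzyme of ether lipid synthesis, moved from -0.76 to 0.59 (interaction 1.36 ± 0.26, unadjusted p = 1.7e-04), and its treated difference was not called (adjusted p = 0.0599). Col5a1, Igsf3 and Igf2r were near or at 0 in GMP. Col5a1, a collagen chain, read 0.236, 0.649 and 0.675 CPM in treated GMP and 0 in each control GMP library, against 99.98, 90.2 and 80.5 CPM in treated LSK-labelled libraries (unadjusted p = 9.0e-05). Igsf3 read 2.05, 1.42 and 0.468 CPM in treated and 0.0561, 0 and 0 CPM in control GMP (unadjusted p = 6.0e-05). Igf2r, the mannose 6-phosphate receptor, read 1.62, 0.678 and 0.546 CPM in treated and 0, 0 and 0.0283 CPM in control GMP (unadjusted p = 9.1e-05).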

How the data were processed

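Per the labels' protocols, RNA was amplified by Smart-Seq2. Raw read counts per Ensembl gene and library were deposited for each cell type in a table of its own. The authors' deposited tables also hold a mean signal (counts over size factors), a fold ratio, its log2 value and p-values for agonist against control within the cell type, which were not used. The build mm9 is listed per the submitters' processing notes, but gene positions equal those of GENCODE M21 (GRCm38) for 94.2% of 24923 matched IDs. The aligner, the counter and its use of strand were not found in the labels or file headers (not given in the sources used here), so overlapping and antisense genes are uncertain.

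Counts of the 24982 genes in both tables were joined on the gene ID. A table lists only genes with at least 1 count. Whether it lists every such gene is not stated, so a gene absent from a table was not read as 0 in the main fit. Genes listed in a single table held 0.0472% of treated GMP counts and 0.0986% of treated LSK-labelled counts. edgeR 4.0.16 in R 4.3.3 (filterByExpr, TMM, quasi-likelihood fit of the 4 group means over 12 libraries, Benjamini-Hochberg adjustment) gave the treated contrast, the control contrast and the interaction. Alternatives used DESeq2 1.42.0, limma 3.58.1 (voom), other scalings and filters, a block on the replicate number, fits of the 6 libraries compared and fits without 1 library. The fit was also run on simulated counts with a common mean per gene and changes added to treated GMP libraries only. Those counts held no other difference between groups and no unlike library, and the outcome is not reported here. Depth was 30649314 to 47225983 counts per library.

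Named genes were those called with the 15 largest differences per direction among genes whose treated groups did not overlap and whose higher group averaged 20 CPM or more, up to 4 called members per list and direction (up to 2 further members by smallest p where fewer than 2 were called), the sort markers, the 10 genes with the smallest interaction p, the 5 highest of each single table and Tmem173, of which the text prints a part. Other called list members, the neutrophil genes of LSK-labelled replicate 3, the isozymes, the motifs and the promoters shown were chosen after their values were seen. The comparison and the gene lists were chosen with earlier results of these data known. A few genes of the lists are not reported here by name.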

Additional observations from a re-analysis of the deposited data

Results flagged for a closer look

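Clca3a1, a calcium-activated chloride channel regulator gene, was listed in the LSK table alone and so entered no comparison. Its treated LSK-labelled libraries read 80.2, 99.0 and 56.3 CPM (mean 78.5 ± 21.4, SD, n = 3), above the 3 control LSK-labelled libraries (mean 16.8 ± 6.88, SD, n = 3). It drew attention as a signal outside the shared genes that was higher than in the control samples. Its level in GMP is not listed, so no difference between the cell types can be given.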

How the results depend on the processing

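Counts of calls moved most with the tool and with single libraries. After the agonist, DESeq2 called 2786 genes (1557 higher in GMP, 1229 higher in LSK-labelled cells) and limma-voom called 1322 higher in GMP. Of the 1588 edgeR calls, 1575 were shared with DESeq2 in the same direction. In controls DESeq2 called 3052 genes (1524 higher in GMP), limma-voom called 1440 higher in GMP, and the 6 control libraries alone gave 732 higher in LSK-labelled cells. DESeq2 called 179 interactions. Other scalings and filters and the added inclusion of genes of either table as 0, chosen after seeing the data, kept the counts within 1.5 times. Fits without 1 library ranged from 850 to 2080 calls after the agonist (392 to 1210 higher in GMP, 452 to 870 higher in LSK-labelled cells), from 1019 to 2032 in controls (379 to 958 and 620 to 1074), and from 0 to 22 for the interaction; the cause was not tested. The median of all treated differences was 0.01, and moved by over 0.1 with limma-voom (0.12), the replicate block (0.12) and without LSK-labelled replicate 1 (0.13). Of 167 called genes followed through 22 alternatives, 97 kept their call in all and 0 changed sign; 22 were not called in the fit of the 6 treated libraries alone, 21 in that with the replicate block and 11 with the block over all libraries; Ltf, not called at -5.23, ranged from -11.04 to 2.55 over the fits without 1 library and reversed only without LSK-labelled replicate 3.

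The replicate numbers were not taken as pairs in the main fit, and whether they mark pairs is not stated. Deviations of same-numbered treated libraries correlated at 0.129, 0.065 and 0.245, and GMP replicate 2 correlated best with LSK-labelled replicate 1 (0.073). Treated libraries of unlike number correlated at -0.173 to 0.073. In controls, same-numbered libraries correlated at 0.053, 0.191 and 0.396, each the best match of its GMP library. Control libraries of unlike number correlated at -0.366 to 0.123. With a replicate block, 1796 genes were called after the agonist (870 and 926), of which 1395 were shared with the 1588, and 2099 (774 and 1325) in controls. Depth limits the genes at or near 0 in one group, whose folds are bounds and cover counting error only.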

Other observations

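Genes listed in a single table entered no comparison. The LSK table alone listed 4754 genes, of which 120 averaged at least 1 CPM in treated libraries. The highest was Slc25a21, a mitochondrial carrier of oxodicarboxylates, at 223.7, 225.3 and 142.9 CPM. Paqr9, Abcg4, a sterol transporter gene, and Sfrp4, a Wnt antagonist gene, followed Clca3a1 with means of 47.1, 39.1 and 36.4 CPM. The GMP table alone listed 6060 genes, of which 14 averaged at least 1 CPM. The highest were Tshb at 2.81, 2.08 and 1.24 CPM and Btla at 1.89, 0.775 and 3.12 CPM.

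Few oxidative phosphorylation genes were called, at a share near that of all genes, and those called were mitochondrially encoded. Of 44 tested genes of that list, 3 were called higher in LSK-labelled cells (6.82%, against 4.85% of all genes) and 0 higher in GMP. All 3 were encoded by the mitochondrial genome. mt-Co1, a subunit of complex IV, read 6048, 6090.0 and 2988 CPM in treated GMP and 13972, 13324 and 8933 CPM in treated LSK-labelled libraries (-1.26 ± 0.28, adjusted p = 0.0144 in edgeR). In controls the libraries overlapped, at 6574, 3845 and 5401 against 4655, 4549 and 5026 CPM. mt-Nd4 of complex I and mt-Cytb of complex III differed by -1.06 ± 0.24 and -0.83 ± 0.20. The calls of all 3 ended without LSK-labelled replicate 1, that of mt-Nd4 also without GMP replicate 3 or LSK-labelled replicate 2, and that of mt-Cytb also without GMP replicate 1 or 3 or LSK-labelled replicate 2 (adjusted p from 0.0543 to 0.106). The share of all counts from the mitochondrial genome moved with these genes, at 1.24% to 1.96% in treated GMP and 2.72% to 3.61% in treated LSK-labelled libraries, and its part in them was not tested. Of 61 cytosolic ribosomal protein genes, 1 was called (1.64%, under the 4.85% of all genes). It was Rplp0, higher in LSK-labelled cells (-0.66 ± 0.19, adjusted p = 0.0478), a call that held in 2 of the 12 fits without 1 library (adjusted p in the others from 0.0501 to 0.188). The Rplp0 call also ended with median-of-ratios scaling (adjusted p = 0.0584), upper-quartile scaling (0.0692), no filter on low counts (0.0822), the 6 treated libraries alone (0.0554) and genes of either table entered as 0 (0.0512).

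Some lipid synthesis genes were higher in GMP after the agonist. Of 30 cholesterol and fatty acid synthesis genes, 5 were called higher in GMP (16.7%, against 4.57% of all genes), 0 higher in LSK-labelled cells and 25 not called. In controls 2 and 6 were called, and edgeR called 0 interactions over all genes (1707 at an unadjusted p under 0.05; DESeq2 called 179 and limma-voom 0). Insig1, which holds back sterol synthesis, read 57.9, 63.1 and 56.6 CPM in treated GMP and 19, 11.5 and 33 CPM in treated LSK-labelled libraries (1.49 ± 0.43, adjusted p = 0.0492 in edgeR). Insig1 also lost its call with the replicate block (adjusted p = 0.0665), with the block over the 6 treated libraries alone (0.0633) and when genes of either table entered as 0 (0.0502). All 5 calls ended in some of the fits without 1 library, in which the list's count ran from 0 to 5.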
